A study of Mus musculus with 2 samples.

Results

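The 35 genes described here run the cell division cycle, and their transcripts were followed across the cells of the postnatal day 7 mouse knee joint. They were taken by name from the 32285 genes of a single-cell RNA-seq count matrix, and all 35 were found. By role, 10 are S-phase genes (Pcna, Mcm2 to Mcm7, Rrm1, Rrm2 and Tyms), 18 are genes of G2 and mitosis (Mki67, Top2a, Cdk1, Ccnb1, Ccnb2, Ccna2, Ube2c, Birc5, Tpx2, Aurka, Aurkb, Bub1, Bub1b, Cenpf, Cenpe, Nusap1, Hmmr and Kif11), 5 are D and E cyclins (Ccnd1, Ccnd2, Ccnd3, Ccne1 and Ccne2) and 2 are inhibitors of cyclin-dependent kinases (Cdkn1a and Cdkn1b).

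The study examined joints that lack collagen XII, a collagen of tendon, ligament and other connective tissue. Its labels describe 2 samples, wild type and Col12a1 KO, from hindlimb knee joints of mice of both sexes that were digested in collagenase II for 6 hours. There were 2 independent experiments; each genotype gave 1 library to the earlier and 2 libraries to the later, and all were merged before deposit into 1 matrix of 24203 barcodes. No label or file ties a barcode to a genotype, so wild type was not compared with knockout, and every value below is over both. The barcodes end in 1 or 2, here called barcode set 1 and set 2, and the results described most closely are given in both sets.

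Cells with at least 500 genes, at least 1000 unique molecular identifiers (UMIs, 1 per captured transcript molecule) and at most 10% mitochondrial UMIs were kept: 7157 cells in set 1 and 8013 in set 2, with medians of 10959 and 9623 UMIs. They fell into 34 clusters and 24 classes, found without the 35 genes and lists of other cell cycle genes. Histone genes and other cycle genes outside those lists were not left out. Of the classes, 21 carry a name ending in "-like" from marker genes and 3 have none and are called by their leading gene. These names were rebuilt from markers and can differ from the study's own. The 2 sets shared 40 barcode sequences among all barcodes and 14 among kept cells. In set 1 the doublet caller marked 3 of 7160 cells and in set 2 it marked 1 of 8014, under 0.5%, so it is taken not to have worked and doublets remain among the cells. No p-value is printed because cells of 1 pooled matrix do not replicate a condition, and intervals are 95% intervals that cover counting error only.

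A dividing cell copies its DNA in S phase and separates the copies in mitosis, with gap phases, G1 and G2, in between. D cyclins respond to growth signals in G1 and bind Cdk4 and Cdk6, and E cyclins then act with Cdk2 at the entry into S phase. The Mcm proteins form the helicase that opens replication origins, Pcna is the sliding clamp of the DNA polymerases, and Rrm1, Rrm2 and Tyms supply deoxynucleotides. Cyclins A2, B1 and B2 drive Cdk1 through G2 and mitosis, and Cdkn1a (p21) and Cdkn1b (p27) hold the kinases back. In a growing joint, blood precursors, muscle progenitors, growth plate chondrocytes and vessel cells are among those known to divide.

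S-phase genes are commonly bound by E2F factors, and G2 and mitosis genes by the DREAM and MuvB complexes at an element called the CHR, usually close to a CCAAT box bound by NF-Y. RefSeq promoter entries (GRCm38.p6) were found for 28 of the 35 genes. The 250 bases before each start were searched on both strands for the CHR (TTTGAA or TTCGAA), the CCAAT box (CCAAT) and an E2F motif (TTTCCCGC, TTTCGCGC, TTTGCCGC or TTTGGCGC). The 6 promoters below show the arrangement in 4 G2 and mitosis genes and 2 S-phase genes, as the 150 bases before the start, 5′ to 3′ on the gene's strand. Capitals mark a match of any of these motifs on either strand.
Cdk1, chr10:69352913-69353062, minus strand: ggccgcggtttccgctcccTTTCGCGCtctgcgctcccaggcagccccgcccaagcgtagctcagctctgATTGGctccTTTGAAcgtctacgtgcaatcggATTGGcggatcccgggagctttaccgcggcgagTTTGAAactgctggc
Top2a, chr11:99024190-99024339, minus strand: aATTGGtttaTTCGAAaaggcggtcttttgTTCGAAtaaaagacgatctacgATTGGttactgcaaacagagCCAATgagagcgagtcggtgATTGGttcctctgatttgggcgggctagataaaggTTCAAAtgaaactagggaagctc
Ube2c, chr2:164769779-164769928, plus strand: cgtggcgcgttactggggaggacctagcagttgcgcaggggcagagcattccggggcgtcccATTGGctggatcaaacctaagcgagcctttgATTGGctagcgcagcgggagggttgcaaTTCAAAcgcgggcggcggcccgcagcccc
Kif11, chr19:37376232-37376381, plus strand: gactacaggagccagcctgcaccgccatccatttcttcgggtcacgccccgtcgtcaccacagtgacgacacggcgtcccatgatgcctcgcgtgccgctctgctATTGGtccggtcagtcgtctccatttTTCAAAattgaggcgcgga
Mcm5, chr8:75109359-75109508, plus strand: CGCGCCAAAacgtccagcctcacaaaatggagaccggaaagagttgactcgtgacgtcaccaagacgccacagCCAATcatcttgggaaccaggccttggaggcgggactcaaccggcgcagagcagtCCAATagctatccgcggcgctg
Mcm6, chr1:128359706-128359855, minus strand: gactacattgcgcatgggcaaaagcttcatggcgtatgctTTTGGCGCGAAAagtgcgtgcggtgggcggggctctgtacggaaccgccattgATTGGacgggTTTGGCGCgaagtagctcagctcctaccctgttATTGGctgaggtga

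A CHR match lay in 7 of the 15 G2 and mitosis promoters with an entry, 46.67%, against 17.43% of all 27025 promoters searched, and in 2 of 9 S-phase promoters. The CCAAT box was in 13 of the 15 and in 8 of the 9, against 34.46% of all promoters. All 7 G2 and mitosis promoters with a CHR match also held a CCAAT box, a pairing found in 6.213% of all promoters. An E2F match was in 3 of the 9 S-phase promoters and in 1 of the 15, that of Cdk1, against 1.913% of all. Of the other members with an entry, Ccnd3, Ccne1 and Cdkn1a held none of these motifs, and Cdkn1b held the CCAAT box alone. A match is a run of letters and not a measured binding site, and its absence says only that these letters are not in the window.

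To compare cells at equal depth, each cell was thinned to 2000 UMIs, which 14476 of the 15170 kept cells reached. A cell was called S with at least 3 UMIs of the 10 S-phase genes and more of them than of the 18 G2 and mitosis genes, and G2/M with at least 3 UMIs of the 18 and at least as many as of the 10. On that rule 422 cells were S, 2.92% (interval 2.65 to 3.2%), and 2228 were G2/M, 15.4% (14.8 to 16%). The shares in set 1 and set 2 were 2.71% and 3.10% for S and 17.3% and 13.7% for G2/M. The G2/M call takes cells with both lists as well, since 743 cells reached 3 UMIs of each. The larger G2/M share also goes with a larger list: the 18 genes held 197576 UMIs in the kept cells and the 10 held 68523, so the ratio of the 2 calls is not a ratio of phase lengths. The cut divides a continuous count, with 711 cells at exactly 2 UMIs of the fuller list and 386 at 3. The overall shares moved with the depth, from 1.58% S and 11.6% G2/M at 1000 UMIs to 6.79% and 17.1% at 5000. They moved with the cut as well, to 5.08% S at 2 UMIs of a list and 1.42% at 5, and with the genes, to 5.32% S and 36.6% G2/M when 34 further S genes and 39 further G2 and mitosis genes made the call. The shares are of cells past a cut and not of all dividing cells.

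The phase genes were detected together in cells. Cells with a UMI of Aurka, a mitotic kinase, carried a mean of 24.4 UMIs of the other 27 phase genes at 2000 UMIs, and cells without one carried 2.47. For Top2a, the topoisomerase that untangles replicated DNA, the means were 15.9 and 1.01. Pcna set cells apart least, with means of 5.72 and 2.50, and it was also the S-phase gene detected in most cells, 11.2%. Mki67, a protein that coats mitotic chromosomes and marks dividing cells, had a UMI in 14.9% of cells.

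Most cells with a phase call were blood precursors or muscle progenitors. Of the 2650 cells called S or G2/M, 42.1% were erythroid-like, 14.5% muscle progenitor-like, 9.92% immature neutrophil-like and 8.11% pro-B or pre-B cell-like. Within classes, the share in S or G2/M was above 10% in 9 of the 24 and under 5% in 8. Pro-B or pre-B cell-like cells were highest at 73.9%, 13.4% in S (9.71 to 17.9%) and 60.5% in G2/M (54.6 to 66.1%, 291 cells). Granulocyte progenitor-like cells followed, with 32.9% in S (25.2 to 41.2%), and 37.1% in G2/M (29.1 to 45.5%, 143 cells). This was the highest share of S calls of the 24 classes. The Ppbp class described next was above it at 1000 UMIs, 11.2% against 9.72%, and with called doublets kept, 21.7% against 16%. Muscle progenitors were above it with the further lists, 15.9% against 14%. The S share leaves out cells with both lists that were called G2/M. Of the 143 granulocyte progenitor-like cells, 33 reached 3 UMIs of the S-phase genes alone and 25 reached 3 of both lists. Of the 291 pro-B or pre-B cell-like cells, 21 and 95 did. The S shares therefore do not rank these classes by cells with S-phase transcripts. Erythroid-like cells had 2.18% in S and 65.5% in G2/M (63.2 to 67.8%, 1648 cells). Their G2/M interval overlaps that of the pro-B or pre-B cells, so these classes were not told apart by it. The intervals of their S shares do not overlap. Of the erythroid-like cells, 6 reached 3 UMIs of the S-phase genes alone and 316 reached 3 of both lists.

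The class led by Ppbp and Pf4, genes of platelets and megakaryocytes, had 17.5% in S and 35% in G2/M, and the muscle progenitor-like class 8.17% and 30.4%. Endothelial-like cells stood lower at 4.39% and 14.9%, B cell-like at 6.36% and 7.60%, and Schwann-like at 3 and 11 of 100 cells. The 10.0% of T or NK cell-like cells in G2/M came to 7 of 70 cells, 15.8% in set 1 and 3.13% in set 2. The connective tissue classes were low, with S and G2/M shares of 0.625% and 5.94% in osteoblast-like, 0.365% and 2.70% in chondrocyte-like, 0.725% and 1.69% in tenocyte or ligament fibroblast-like (1.42% and 2.84% in set 1, 0.210% and 0.840% in set 2), and 0.711% and 1.22% in fibroblast-like cells. Both chondrocyte-like clusters, led by Msmp and by Matn1, were alike at 2.72% and 2.69% in G2/M.

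Skeletal myofibre-like cells, which have left the cycle, serve as a low reference, and the part of stray transcripts in any class was not tested. Of their 217 thinned cells, 0 were S, which allows up to 1.38%, and 1 was G2/M, 0.461% (0.0117 to 2.54%). Their median depth before thinning was 3404 UMIs, against 5106 in erythroid-like and 7888 in pro-B or pre-B cell-like cells. The fibroblast-like G2/M interval, 0.887 to 1.64%, lies within that of the myofibres, so a share of that size was not told apart from background at this depth. With the further lists 14.7% of myofibre-like and 18.1% of fibroblast-like cells passed for G2/M, so those lists passed more cells of both classes. In 23 of the 24 classes the intervals of the S plus G2/M share overlapped between the sets. The exception was the immature neutrophil-like class, with 31.9% in set 1 and 20.2% in set 2, of which G2/M made up 26.8% and 16.4%.

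Some class shares turned on how cells were filtered or clustered. The erythroid-like G2/M share, 65.5% here, was 40.6% and below the 61% of pro-B or pre-B cells with cells of 200 genes and 500 UMIs let in and 84.6% with 1000 genes and 2000 UMIs required. With at most 5% mitochondrial UMIs the granulocyte progenitor-like class had 17.6% in S and 60.4% in G2/M, and the immature neutrophil-like class 1.97% in G2/M, because 276 of the 289 cells of the cluster led by Chil3 then took the progenitor name. The same happened to 268 of them with called doublets kept and to 267 without the top 5% of doublet scores, and the progenitor G2/M share was then 63.6% and 61.5%. The granulocyte lineage is therefore described by cluster.

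**Figure D1:**
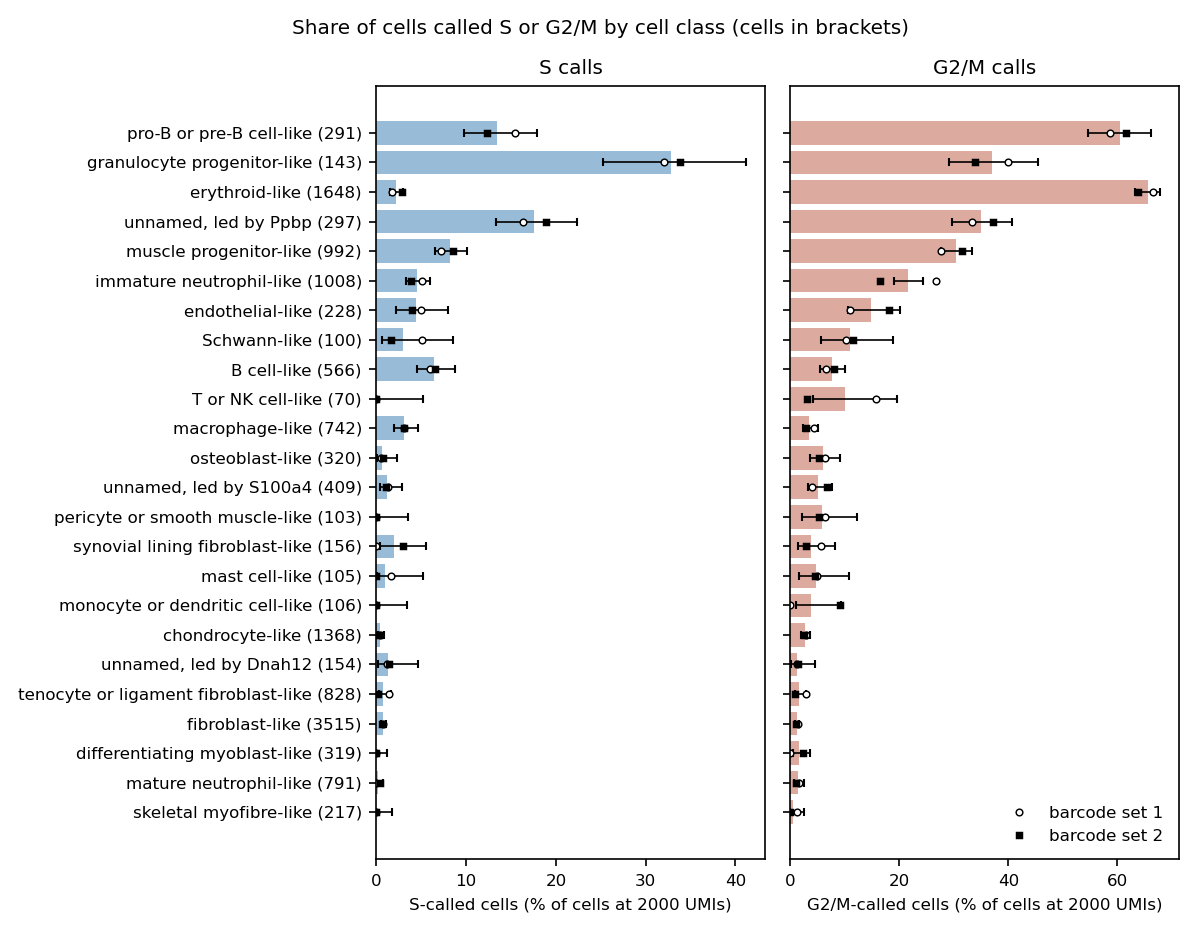
Share of cells called S (left) and G2/M (right) at 2000 UMIs in each of the 24 cell classes, as percent of the thinned cells, whose number is in brackets. Bars are both barcode sets together with 95% exact binomial intervals, and open circles and filled squares are sets 1 and 2. The blood precursor classes and muscle progenitors stand at the top, and the G2/M share of immature neutrophil-like cells is 26.8% in set 1 and 16.4% in set 2.

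The granulocyte clusters are placed in order by their leading genes, and no order was computed. Along the lineage in that order the cell cycle genes fell steeply between neighbouring clusters. The progenitors led by Elane, an azurophil granule protease made early in the lineage, had 32.9% of cells in S and 37.1% in G2/M. The cluster led by Chil3, Camp and Fcnb, genes of the next granule stage, had 12.5% in S (8.94 to 16.9%) and 71.1% in G2/M (65.5 to 76.3%, 287 cells), so the balance moved from S towards G2/M calls. The next cluster, led by Ifitm6 and Ltf, had 1.61% in S and 1.20% in G2/M, the one led by Slc2a3 and Mmp8 1.06% and 2.33%, and the mature neutrophils led by Asprv1 0.126% and 1.39%. The fall in shares depends on the genes that make the call. With the further lists the G2/M shares were 93.7% in the Chil3 cluster, 66.7% in the Ifitm6 cluster, 78.6% in the Slc2a3 cluster and 37.5% in the Asprv1 cluster. In the Ifitm6 cluster 59.8% of the UMIs of the further G2/M list were of Hmgb2, a chromatin protein, and Hmgb2, Lbr and Cks2 together made up 80.8%, whereas the 18 members hold none of these genes. Summed G2/M gene levels, in counts per 1000000 UMIs (CPM), were 3747 in set 1 and 2678 in set 2 in the Chil3 cluster, and 196 and 50.3 in the Ifitm6 cluster. Top2a was at 556 CPM in the first of these and 13.9 in the second, and Mcm6 at 51.0 and 9.12. The cells of the Chil3 cluster were 165 in set 1 and 122 in set 2, and its share in G2/M was 77.0% and 63.1%.

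Erythroid-like cells formed 4 clusters. In the one led by Hemgn and Sptb, 97.9% of 420 cells were G2/M, and the summed G2/M genes reached 15174 CPM in set 1 and 13242 in set 2, the highest of all clusters. Its leading genes also held Mki67 and histone genes such as Hist1h1d, and histone genes were not left out of the clustering. How far cycle genes set this cluster apart from the other erythroid-like clusters was not tested. The cluster led by Hbb-bt had 5.51% in S and 61.9% in G2/M, and the one led by Tmcc2, in which globin made up 65.8% of UMIs in set 1 and 66.7% in set 2, had 23.3% in G2/M.

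The cluster led by Xpo7, a gene of late erythroid cells, carried G2/M transcripts with few of S phase. Of its 572 thinned cells, 59.6% were G2/M and 0.175% S. The summed G2/M genes were at 4965 CPM in set 1 and 4384 in set 2, and the S genes at 103 and 142. Mki67 was at 2057 CPM there and Cenpf, a kinetochore protein, at 662, beside 27.5 for Cdk1, 3.84 for Aurkb and 1.05 for Tyms. In the Hemgn cluster the same genes were at 4026 CPM for Mki67, 1232 for Cenpf, 384 for Cdk1, 145 for Aurkb and 158 for Tyms. The 2 clusters thus kept Mki67 and Cenpf within 2-fold of each other while Cdk1, Aurkb and Tyms differed by more than 10-fold. Cdkn1b was at 538 CPM in the Xpo7 cluster and 168 in the Hemgn cluster. Mki67 made up 41.7% of the G2/M UMIs of the Xpo7 cluster in set 1 and 46.5% in set 2. When Mki67 was left out of the calls, an alternative chosen after these values were seen, 35.1% of the Xpo7 cells were G2/M, and the Hemgn cluster stayed at 96.0%. The whole erythroid-like class then had 52.1% in G2/M and the pro-B or pre-B cell-like class 57.4%.

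Among muscle cells, the cluster led by Fgfr4 and Pax7, the satellite cell factor, had 8.11% in S and 14.9% in G2/M (12.5 to 17.6%, 777 cells). The differentiating myoblasts led by Myog had 0 of 319 cells in S, which allows up to 0.940%, and 1.57% in G2/M (0.511 to 3.62%). This order turned over with the further lists, which put 53.0% of the Myog cells and 41.1% of the Fgfr4 cells in G2/M. In the Myog cluster Jpt1, Tubb4b and Cbx5 held 47.0% of the UMIs of the further G2/M list, at 1498 CPM for the whole list against 2836 CPM in the Fgfr4 cluster. A second muscle progenitor-like cluster of 215 cells had 86.5% in G2/M, and its leading genes were replication-dependent histone genes such as Hist1h1b, so it was set apart by cycle genes that were outside the lists left out. With histone genes also left out of the clustering, a choice made after seeing the data, 164 of these cells fell with muscle progenitors, 38 with fibroblasts and 6 with tenocytes. The muscle progenitor-like share in G2/M was then 30.3%, close to the 30.4% above, and the fibroblast-like share 2.36%, beside 1.22%. In the same clustering the pro-B or pre-B cell-like share in G2/M was 42.9% and the B cell-like share 21.7%, with 111 of the 312 cells of the Vpreb1 cluster now named B cell-like. Of all 35 members, 25 were then called higher and 3 lower in B cell-like cells, against 2 and 5 here. The share of all genes called was not taken in that clustering, so these counts stand without a background. In the clustering used here, the pro-B or pre-B cell-like cluster led by Vpreb1 and the B cell-like cluster led by Igkc had summed G2/M levels of 3380 and 612 CPM in set 1 and 4503 and 642 in set 2.

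**Figure D2:**
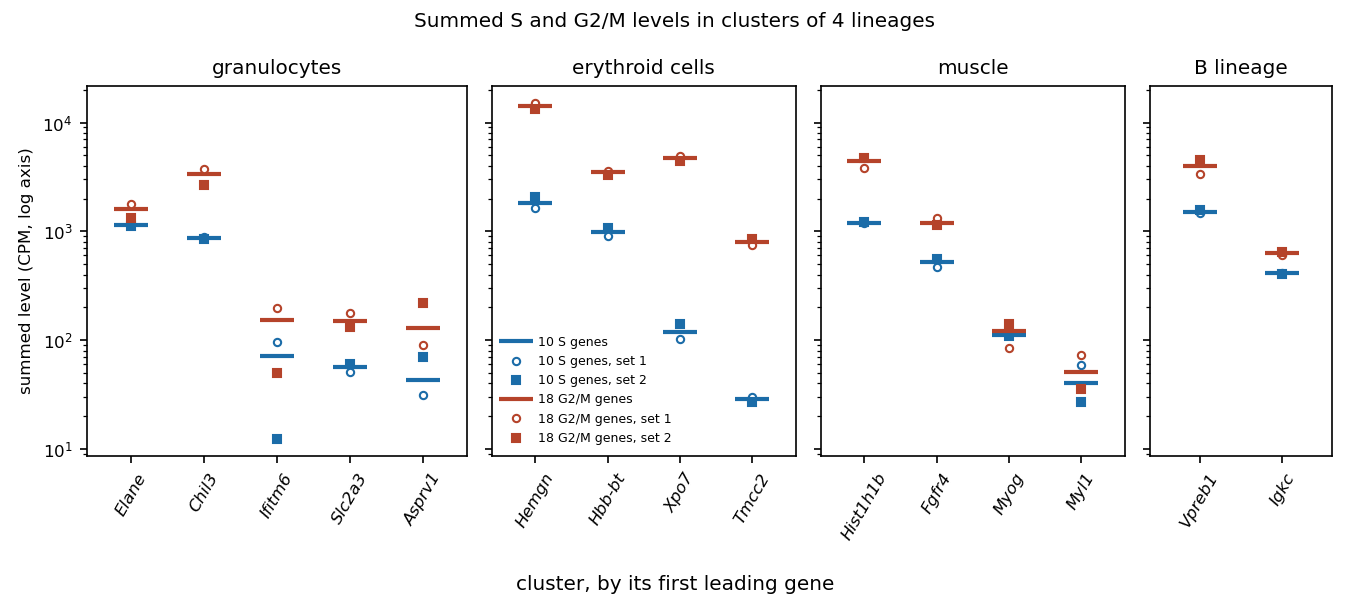
Summed levels of the 10 S genes (blue) and the 18 G2/M genes (red), in CPM on a log axis, in clusters of 4 lineages named by their first leading gene. Lines are both sets together, open circles set 1 and filled squares set 2. Levels drop between the Chil3 and Ifitm6 granulocyte clusters, and the Xpo7 erythroid cluster has G2/M transcripts at 4965 and 4384 CPM in the sets with S transcripts at 103 and 142.

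UMIs were counted from the 3′ end of transcripts, so levels were not divided by gene length, and levels of different genes are compared only within a cell group. None of the 35 genes overlaps another gene of the matrix on its own strand in the GENCODE M21 annotation. Of the 28 phase genes, 26 were highest in the erythroid-like or the pro-B or pre-B cell-like class. The G2 and mitosis genes peaked in erythroid-like cells in 13 of 18 cases, and the S-phase genes in pro-B or pre-B cell-like cells in 8 of 10. The exceptions were Cdk1, highest in muscle progenitors, and Tyms, highest in granulocyte progenitors. Taken by set, 27 of the 35 genes peaked in the same class in set 1 and set 2.

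Mki67 (chr7:135689784-135716361, minus strand, GRCm38) was at 2059 CPM in erythroid-like cells, 2084 in set 1 and 2025 in set 2, and next at 558 in pro-B or pre-B cell-like cells, 417 and 676. At 2000 UMIs it was seen in 70.6% of erythroid-like cells (85.1% before thinning) and in 1.84% of myofibre-like cells, where it was lowest at 10.4 CPM. The Mki67 level of T or NK cell-like cells came from set 1, with 387 CPM there and 13 in set 2. Top2a (chr11:98992943-99024189) was highest in pro-B or pre-B cell-like cells, at 814 CPM in set 1 and 1099 in set 2, then at 679 and 714 in erythroid-like and 347 and 416 in muscle progenitor-like cells. The intervals of these 3 classes do not overlap.

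Cdk1, the kinase that starts mitosis, was at 157 CPM in muscle progenitor-like cells (150 to 163), 146 in pro-B or pre-B cell-like (134 to 158) and 134 in erythroid-like cells (127 to 141). The first and second of these do not differ beyond their intervals. Its partner Ccnb1 was at 92.2 CPM in erythroid-like cells, 72.7 in pro-B or pre-B cell-like and 45.7 in muscle progenitor-like cells, and had 1 UMI in all myofibre-like cells. Ube2c, the ubiquitin-conjugating enzyme of the anaphase-promoting complex, was at 550 CPM in erythroid-like and 264 in pro-B or pre-B cell-like cells.

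The remaining G2 and mitosis genes were divided between erythroid-like and pro-B or pre-B cell-like cells. The cyclins Ccnb2 and Ccna2 were at 212 and 155 CPM in erythroid-like cells and 133 and 117 in pro-B or pre-B cell-like cells. Birc5 (survivin) and Aurkb belong to the chromosomal passenger complex, and Birc5 was highest in erythroid-like cells at 349 CPM whereas Aurkb was highest in pro-B or pre-B cell-like cells at 75.9, with muscle progenitors next at 52.5. The spindle assembly checkpoint genes Bub1 and Bub1b were also highest in pro-B or pre-B cell-like cells, at 89.2 and 104 CPM beside 48.6 and 63.9 in erythroid-like cells. The kinetochore genes Cenpf and Cenpe went the other way, at 632 and 285 CPM in erythroid-like cells and 247 and 169 in pro-B or pre-B cell-like cells. The spindle genes Tpx2, Aurka, Nusap1, Hmmr and Kif11 were at 219, 75.1, 486, 219 and 292 CPM in erythroid-like cells, each above its pro-B or pre-B cell-like level, although Kif11 peaked in pro-B or pre-B cell-like cells in set 2.

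Among S-phase genes, Mcm6 was at 169 CPM in pro-B or pre-B cell-like cells (168 and 170 in the sets), 146 in granulocyte progenitor-like (138 and 155) and 126 in the Ppbp class (108 and 150), against 1.39 in mature neutrophils. Tyms, which makes thymidylate, was at 129 CPM in granulocyte progenitor-like and 128 in pro-B or pre-B cell-like cells, equal within their intervals, and 0.521 in mature neutrophils. Rrm2, the S-phase subunit of ribonucleotide reductase, was at 210 CPM in erythroid-like and 194 in pro-B or pre-B cell-like cells, with overlapping intervals. The other helicase genes, Mcm2, Mcm3, Mcm4, Mcm5 and Mcm7, were at 80.1, 161, 108, 123 and 126 CPM in pro-B or pre-B cell-like cells, and Rrm1 at 148. Granulocyte progenitor-like cells came second for Mcm3 to Mcm7, at 79.8 to 146 CPM, and the Ppbp class second for Mcm2, at 67.5.

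Pcna differed from the other S-phase genes in macrophage-like cells. It was at 171 CPM there, 172 in set 1 and 170 in set 2, close to the 176 of the Ppbp class and the 166 of granulocyte progenitors, and was detected in 24.8% of cells at 2000 UMIs, 65.9% before thinning, against 2.76% of myofibre-like cells. It was called higher than in all other kept cells, at 2.23-fold. In the same macrophage-like cells 3.10% were S, a call that counts Pcna itself, and 3.5% G2/M. The S share was 0.404% with a cut of 5 UMIs, and the G2/M share 1.75% without Mki67 in the calls. Rrm2 was at 3.07 CPM, above its level in mature neutrophil-like and myofibre-like cells only. Pcna also acts in DNA repair outside S phase.

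**Figure D3:**
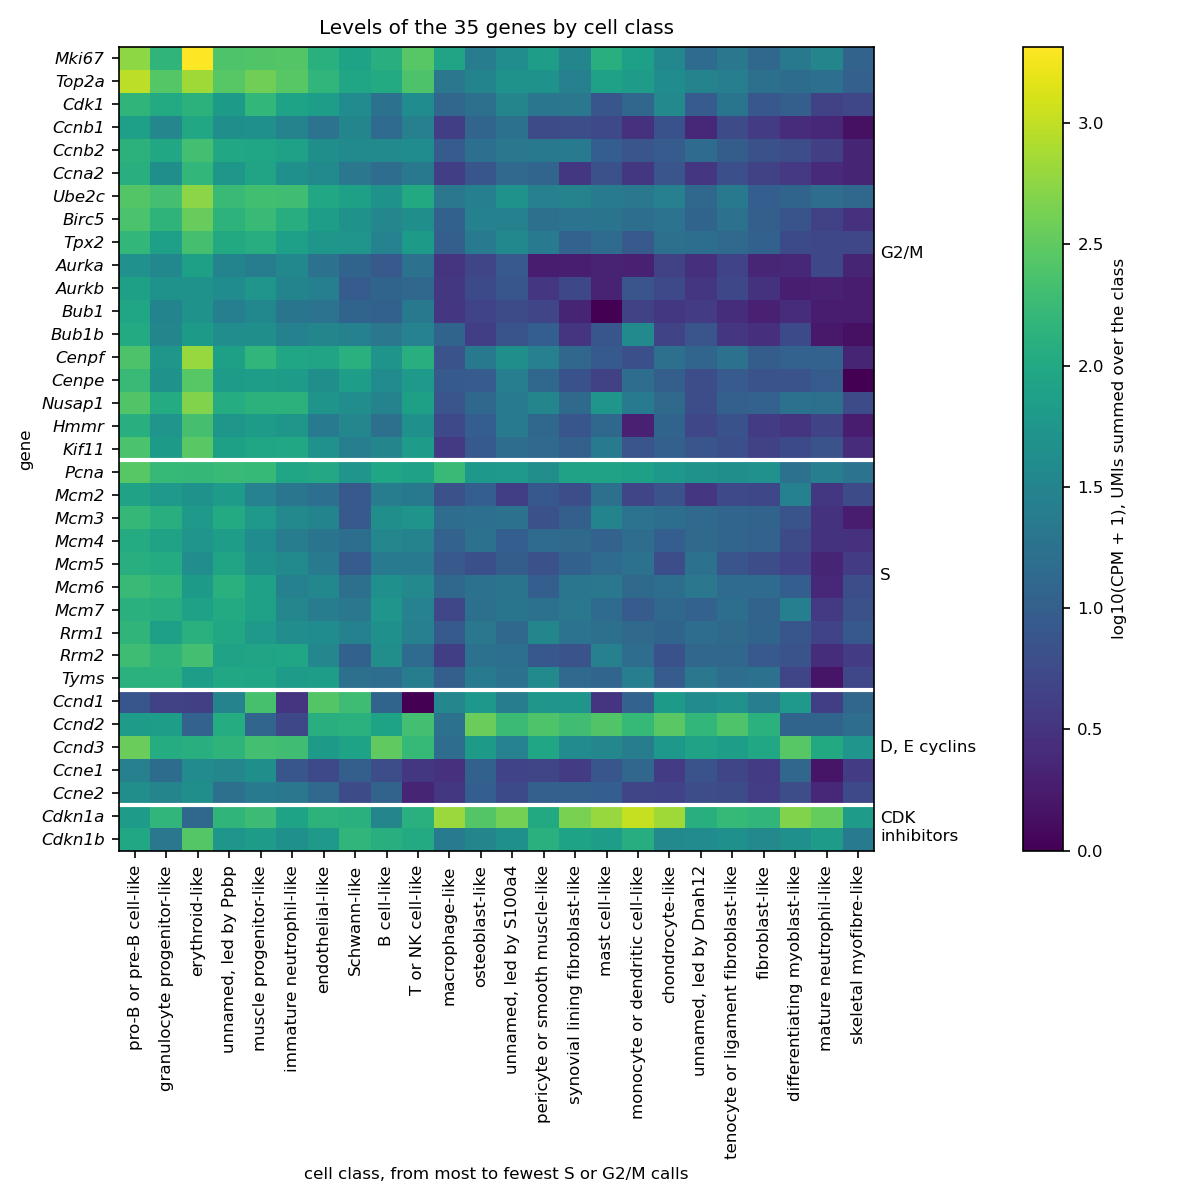
Level of each of the 35 genes (rows, grouped by role) in the 24 cell classes (columns, from most to fewest S or G2/M calls), as log10(CPM + 1) of UMIs summed over the class. The G2/M and S blocks fade from left to right together, apart from Pcna in macrophage-like cells, whereas the D cyclins and inhibitors follow other classes.

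Each class was also compared with all other kept cells for 16898 genes with at least 100 UMIs. A gene was called higher or lower where the ratio of CPM was at least 2 or at most 0.5, its interval left out 1, and both sets had the same direction. All 28 phase genes were called higher in erythroid-like cells, where 8.79% of all genes were, and in pro-B or pre-B cell-like cells, where 19.2% were. The median log2 ratios in erythroid-like cells were 3.10 for the 18 G2 and mitosis genes and 1.41 for the 10 S genes, beside -2.17 for all genes. In pro-B or pre-B cell-like cells they were 2.14 and 2.52, beside -0.08. Of the 28, 26 were higher in muscle progenitor-like cells (12.9% of all genes), 21 in the Ppbp class (15%), 20 in granulocyte progenitor-like cells (10.6%) and 13 in immature neutrophil-like cells (10.1%). All 10 S genes were among those called in granulocyte progenitors and in the Ppbp class, with medians of 2.10 and 1.95, while 10 and 11 of the 18 G2 and mitosis genes were. In immature neutrophil-like cells it was the reverse, with 10 of the 18 and 3 of the 10. With histone genes left out of the clustering, 5 of all 35 genes were called higher in immature neutrophil-like cells, against 14 here. The share of all genes called was not taken in that clustering.

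None of the 28 was called higher in the connective tissue classes. All 28 were lower in fibroblast-like cells (25.3% of all genes), mature neutrophil-like cells (61.0%) and skeletal myofibre-like cells (52.4%). Of the 28, 26 were lower in differentiating myoblasts (30.7%), 25 in chondrocyte-like (31.4%), 25 in tenocyte or ligament fibroblast-like (21.6%), 25 in macrophage-like (45.2%), 21 in synovial lining fibroblast-like (22.2%) and 18 in osteoblast-like cells (21.3%). In mature neutrophils and myofibres the background is so high that the count says less. A fall in these classes is relative to a pool in which erythroid and B precursors hold many of these transcripts.

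The D cyclins divided the classes among them and did not follow the phase genes. Ccnd1 was highest in endothelial-like cells at 268 CPM (257 in set 1 and 276 in set 2), muscle progenitor-like at 222 (214 and 226) and Schwann-like cells at 193 (213 and 179). The first of these intervals, 256 to 281, lies above the second, 215 to 231, and the second overlaps the third, 169 to 219. The next level was 63.1 in chondrocyte-like cells. In erythroid-like, neutrophil-like and B-lineage cells Ccnd1 lay between 2.23 and 10.9 CPM, no higher than the 11.2 of myofibre-like cells, and T or NK cell-like cells had 0 UMIs, which allows up to 3.69 CPM.

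The highest Ccnd2 levels were in skeletal cells. Osteoblast-like cells led with 357 CPM, 398 in set 1 and 296 in set 2, followed by chondrocyte-like cells with 290, 337 and 231. Mast cell-like cells were at 256 CPM, pericyte or smooth muscle-like at 252 and tenocyte or ligament fibroblast-like at 251, which do not differ beyond their intervals. Fibroblast-like cells had 128 CPM. Immature neutrophil-like cells were lowest at 4.22 CPM, erythroid-like cells had 9.93 and muscle progenitor-like cells 11.2. Within muscle progenitors, Ccnd2 was at 3.30 CPM in the Fgfr4 cluster.

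Ccnd3 was highest in B-lineage cells and myoblasts. Pro-B or pre-B cell-like cells came first at 356 CPM (300 in set 1 and 403 in set 2), B cell-like cells 320 (277 and 346), differentiating myoblasts 283 (307 and 271), muscle progenitor-like cells 207 (197 and 212) and immature neutrophil-like cells 198 (197 and 199). The myoblasts carried it with 0 cells in S, and it was at 52.2 CPM in skeletal myofibre-like cells and lowest in macrophage-like cells at 14.3. In the granulocyte series Ccnd3 was at 111 CPM in the Elane cluster, 185 in the Chil3 cluster, 208 in the Ifitm6 cluster and 102 in the Asprv1 cluster, and so did not fall where the phase genes fell.

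The E cyclins were low and followed the dividing classes. Ccne1 was at 43.9 CPM in muscle progenitor-like cells, 38.9 in erythroid-like and 33.0 in the Ppbp class, and 0.521 in mature neutrophils. Ccne2 was at 43.4 CPM in erythroid-like and 42.7 in pro-B or pre-B cell-like cells, which do not differ beyond their intervals, and 31.7 in granulocyte progenitors.

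Cdkn1a, a p53 target that stops the cycle, did not simply rank the classes by their phase calls. It was highest in monocyte or dendritic cell-like cells at 1053 CPM (1002 in set 1 and 1138 in set 2), then in chondrocyte-like cells at 694 (850 and 495), macrophage-like at 650 (678 and 622) and mast cell-like cells at 634 (656 and 592). Erythroid-like cells were lowest at 12.3 CPM, with B cell-like cells at 30.8. Some classes with few phase calls were low as well, with 65.4 CPM in skeletal myofibre-like and 149 in fibroblast-like cells. In differentiating myoblasts Cdkn1a stood at 723 CPM in set 1 and at 378 in set 2. The gene was called higher in monocyte or dendritic cell-like (4.06-fold), chondrocyte-like (3.36-fold), macrophage-like (2.64-fold) and mast cell-like cells (2.39-fold).

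Cdkn1b was highest in a dividing class, the erythroid-like cells, at 275 CPM (279 in set 1 and 270 in set 2). Within it the Xpo7 cluster had 538 CPM, the Tmcc2 cluster 307, the Hbb-bt cluster 176 and the Hemgn cluster 168. Schwann-like cells were next at 149 CPM, and granulocyte progenitor-like cells had the lowest level of the 24 classes.

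**Figure D4:**
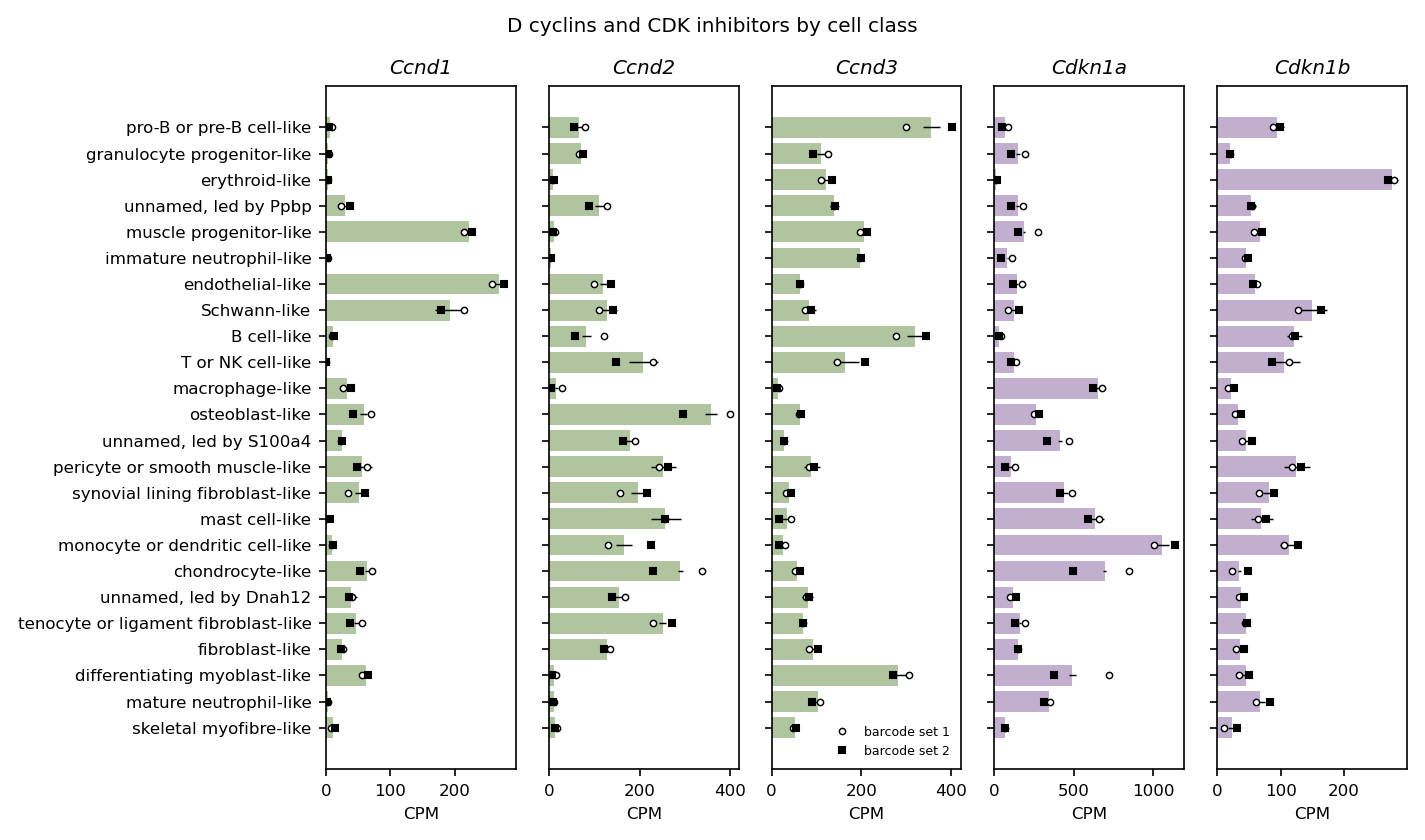
Levels of the 3 D cyclins and of Cdkn1a and Cdkn1b in CPM by cell class, ordered as in the plot of phase shares. Bars are both sets with 95% Poisson intervals, open circles set 1 and filled squares set 2. Ccnd1 peaks in endothelial-like cells, Ccnd2 in osteoblast-like, Ccnd3 in pro-B or pre-B cell-like, Cdkn1a in monocyte or dendritic cell-like and Cdkn1b in erythroid-like cells.

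Other cell cycle genes moved with these classes. Of 34 further S-phase genes, all 34 were called higher in pro-B or pre-B cell-like cells, where 19.2% of all genes were. In muscle progenitor-like cells 27 were (12.9% of all genes), in granulocyte progenitor-like 27 (10.6%) and in erythroid-like cells 19 (8.79%). The Ppbp class had 27 (15%) and immature neutrophil-like cells 11 (10.1%). Of 39 further G2 and mitosis genes, 37 were higher in pro-B or pre-B cell-like, 32 in erythroid-like and 28 in muscle progenitor-like cells. Immature neutrophil-like cells had 19, the Ppbp class 16 and granulocyte progenitor-like cells 14, and the shares of all genes are the same as for the S genes. Foxm1, a transcription factor of G2 genes, was at 40.0 CPM in pro-B or pre-B cell-like and 0.458 in differentiating myoblast-like cells. Mybl2, a partner of the MuvB complex, was at 41.6 CPM in pro-B or pre-B cell-like cells, 57.1 in set 1 and 28.7 in set 2, and Plk1, a mitotic kinase, at 37.8 in erythroid-like cells. Cdk4 was highest in muscle progenitor-like cells at 194 CPM. Cdk6 was at 437 CPM in mast cell-like and 288 in macrophage-like cells. Cdkn1c (p57), the other inhibitor of the p21 family, was at 10937 CPM in differentiating myoblasts, 9360 in set 1 and 11703 in set 2, and next at 1607 in muscle progenitors. It was thus high in myoblasts where no S cell was seen, beside 491 CPM of Cdkn1a.

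Phase calls and cyclins were then compared within a cluster, so that differences between clusters did not enter. Differences of cell type or stage inside a cluster were not removed. In 6 clusters at least 30 cells were S, G2/M and uncalled, and full UMI counts were summed over each state. The 7 D and E cyclins and inhibitors took no part in the calls. In the Fgfr4 muscle cluster, with 63 S, 116 G2/M and 598 uncalled cells, the 34 further S genes together were 4.27-fold higher in S cells (4.08 to 4.48), and the 39 further G2 and mitosis genes 7.23-fold higher in G2/M cells (7.04 to 7.43). Of the former, 22 of the 22 with enough UMIs were called higher in S cells, led by Rfc2 at 16.8-fold, Wdr76 at 13.6-fold and Uhrf1 at 9.70-fold. Of the latter, 34 of 35 were higher in G2/M cells, led by Kif2c, a kinesin of the mitotic spindle, at 76.0-fold, with Pimreg at 63.9-fold and Cdc20 at 54.3-fold. E2f1 was 4.20-fold higher in S cells (3.18 to 5.52). The lowest S ratios of the further lists were 0.473 for Gadd45a, a growth arrest gene called lower, 0.516 for Rbl2 and 0.666 for Tubb4b, neither called. The lowest G2/M ratios were 0.570 for Btg2, 0.578 for Gadd45a and 0.582 for Cdk6, none of them called. The called cells were deeper before thinning, with medians of 14669 UMIs in S and 14287 in G2/M against 8849 in uncalled cells.

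In the Elane progenitor cluster the states were less distinct, at 1.68-fold for further S genes in S cells and 1.64-fold for further G2 and mitosis genes in G2/M cells. Its uncalled cells, 43 in number, already held further S genes at 1559 CPM, beside 714 in the uncalled cells of the Fgfr4 cluster.

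No D cyclin was called in any of the 6 clusters, in S or in G2/M cells, although some had under 100 UMIs and were not tested. In the Fgfr4 cluster Ccnd1 was at 246 CPM in uncalled, 315 in S and 241 in G2/M cells, a ratio of 1.28 (1.13 to 1.45) and 0.980 (0.881 to 1.09). Ccnd3 was at 218, 320 and 193 CPM, a ratio of 1.47 (1.30 to 1.67) for S cells. The intervals of these D cyclin ratios lie below the 2-fold needed for a call. They cover counting error only and not the spread between cells or between thinnings. Ccnd2 came closer in G2/M cells of the Vpreb1 cluster, at 0.524 (0.389 to 0.710), 0.714 in set 1 and 0.359 in set 2. In those of the Igkc cluster it was at 1.60 (1.15 to 2.18) over both sets. It was at 2.86 in set 1 and 0.187 in set 2 there, opposite directions that bar a call. The shares of all tested genes called in either direction in the Fgfr4 cluster were 6.26% for S and 6.92% for G2/M cells.

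Ccne1 was the member called in S cells of the Fgfr4 cluster, at 125 CPM in S, 43.6 in G2/M and 31.2 in uncalled cells. The S ratio was 3.99 (3.16 to 5.03), 2.81 in set 1 and 4.48 in set 2, but 1.86, not called, with another random thinning of the same cells. Ccne2 was at 45.5 CPM in S and 5.36 in uncalled cells of this cluster, on too few UMIs for a call. In the Ppbp cluster Ccne1 was 5.08-fold higher in G2/M cells (3.03 to 9.03), on 17 UMIs in uncalled cells, where 12.8% of genes were called. There 16% were called for S cells and none of the 7 members was. The G2/M cells of the Ppbp cluster held the further S genes at 2.97-fold (2.80 to 3.15) over uncalled cells. The further G2 and mitosis genes were at 2.78-fold (2.68 to 2.88), so ratios in these cells are not particular to G2/M.

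Cdkn1a was called higher in the Ppbp and the Chil3 clusters. In the Ppbp cluster, whose G2/M cells also held further S genes, it was 2.09-fold higher in them (1.76 to 2.51), 2.84 in set 1 and 1.31 in set 2. In the Chil3 neutrophil cluster it was 13.7-fold higher in S cells and 10.2-fold in G2/M cells, against 12 UMIs in the 47 uncalled cells. The S ratio there was 34.4 in set 1 and 1.34 in set 2, so it rests on set 1, and the G2/M ratio was 20.6 and 4.98. Of the 5 calls of these members, the G2/M call of Cdkn1a in the Chil3 cluster was made under all alternatives that gave it a ratio, which thinning to 5000 UMIs did not, and each of the other 4 was lost under at least one. Without Mki67 in the calls, Cdkn1a in G2/M cells of the Ppbp cluster was at 1.34-fold and not called. With another thinning it was not called there (1.94-fold) or in S cells of the Chil3 cluster (8.26-fold), and with thinning to 5000 UMIs Ccne1 was not called in G2/M cells of the Ppbp cluster (7.17-fold). Of all genes tested in the Chil3 cluster, 15.8% were called for S and 14% for G2/M cells. In the Fgfr4 cluster Cdkn1a was at 80.4 CPM in S, 151 in G2/M and 149 in uncalled cells, and was not called.

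None of the 7 members was called in the B cell-like Igkc cluster (22.1% of genes for S and 18% for G2/M), the Vpreb1 cluster (11.5% and 12%) or the Elane cluster (3.35% and 3.16%). Cdkn1b came nearest to a call in S cells of the Vpreb1 cluster, at 60.8 CPM against 120 in uncalled cells, a ratio of 0.504 (0.335 to 0.747).

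**Figure D5:**
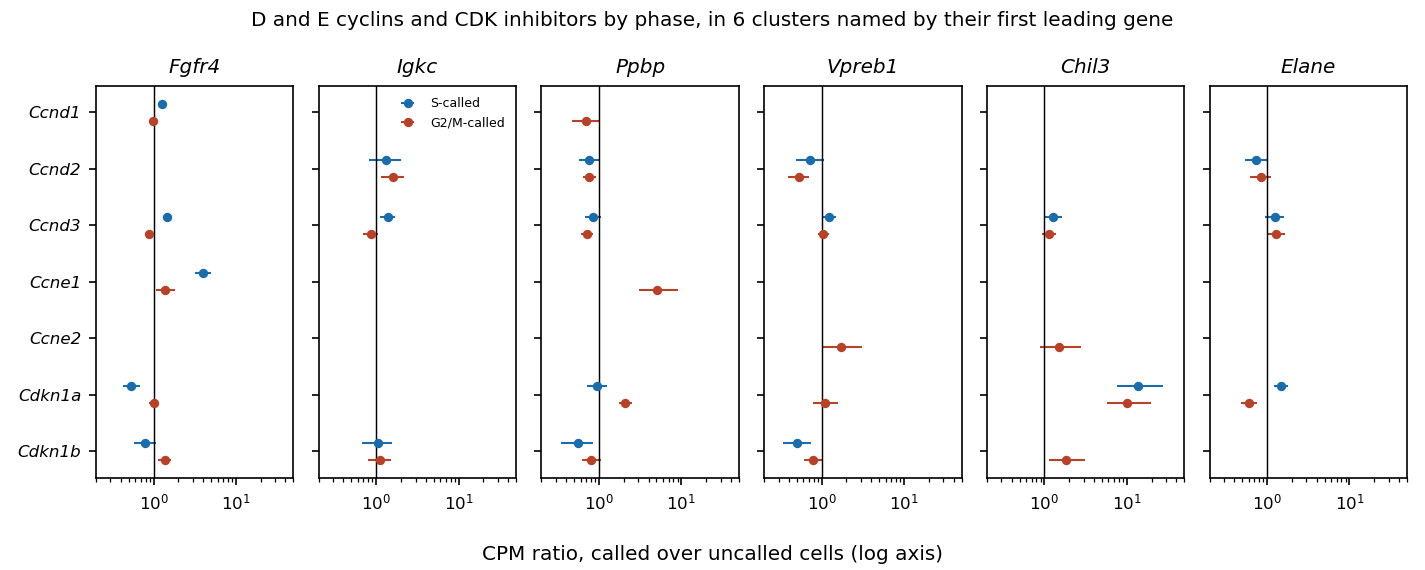
Ratio of CPM in S-called (blue) and G2/M-called (red) cells over uncalled cells, on a log axis, for the D and E cyclins and inhibitors with at least 100 UMIs, in 6 clusters named by their first leading gene. Bars are 95% intervals of the counts. The D cyclins plotted lie between 0.524 and 1.60. Ccne1 is at 3.99 in S cells of the Fgfr4 cluster and at 5.08 in G2/M cells of the Ppbp cluster. Cdkn1a reaches 13.7 and 10.2 in the Chil3 cluster on 12 UMIs in its uncalled cells.

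Across the 33 clusters of at least 50 cells, the genes outside the lists whose log2(CPM + 10) was most like that of the summed S genes were Lig1, Rnaseh2b, Dnmt1, Rbmx2 and Chaf1a, with Pearson r from 0.964 for Lig1 to 0.935 for Chaf1a. Lig1 is the ligase of lagging-strand replication and Dnmt1 the maintenance DNA methyltransferase. Most like the summed G2/M genes were Lockd, Cit, Knl1, Diaph3 and Hist1h1b, from 0.968 to 0.935. Cit acts in cytokinesis and Knl1 at the kinetochore. Of these 10 genes, all but Chaf1a were highest in the Hemgn erythroid cluster, Lig1 at 204 CPM and Lockd at 615. The clusters share libraries and depth, so these values are descriptions.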

How the data were processed

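Single-cell RNA-seq libraries were made with 10x Genomics 3′ v3 chemistry, per the labels' protocols. The authors deposited raw UMI counts per gene and barcode, aligned and merged with Cell Ranger 7.0.0 on mm10, per the submitters' processing notes. No source used here says if reads from introns were included. The matrix holds 257619292 UMIs, and kept cells 1003 to 258627 each.

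Counts were analysed with Python 3.11.15, numpy 2.4.6, scipy 1.17.1 and scanpy 1.11.5. Clustering used 2000 variable genes, 30 principal components, 15 neighbours and Leiden resolution 1. Members, other cell cycle lists, collagens, mitochondrial, ribosomal protein, Xist and Y-linked genes were left out. A class name needed 3 markers at a log2 fold of at least 1 in at least 10% of cells; the rule that left the Ppbp cluster unnamed was added after seeing the data. Levels are summed UMIs per 1000000 UMIs with exact Poisson intervals, shares carry exact Clopper-Pearson intervals, and ratios exact conditional binomial intervals. Scripts were tested on simulated data.

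The members and gene lists were chosen with earlier results of these data known. Named were all 35 members, the 3 highest and 3 lowest of the further lists in the phase comparison, Cdkn1c, Cdk4, Cdk6, E2f1, Foxm1, Mybl2 and Plk1, and the 5 genes most like each phase list. Rfc2, Uhrf1, Wdr76 and the other genes named beside clusters come from that rule or from the clusters' leading genes. Alternatives covered the thinning depth and seed, UMI cut, gene lists, cell filters, doublets, clustering, call ratio and each barcode set. Wild type and knockout were not compared.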

Additional observations from a re-analysis of the deposited data

Results flagged for a closer look

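Barcodes that the filters left out also held cell cycle transcripts. The 928 barcodes with over 10% mitochondrial UMIs, at a median of 3952.5 UMIs, had 297.2 CPM of the summed S genes and 1087 CPM of the summed G2/M genes, and globin made up 2.80% of their UMIs. The 8101 barcodes with under 500 genes or 1000 UMIs, at a median of 2884 UMIs, had 20.2 CPM of the S genes and 229.4 of the G2/M genes, and globin made up 72.6% of their UMIs. All 4 values lie above what a count of 0 allows; in the kept cells the sums were 317 and 915 CPM. The part of free RNA in these barcodes was not tested.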

How the results depend on the processing

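The share of all cells in S, 2.92%, was 1.58% thinned to 1000 UMIs, 6.79% at 5000, 5.08% with a cut of 2 UMIs, 1.42% with 5, 5.32% with the further lists and 3.47% without Mki67. The G2/M share, 15.4%, was 11.6%, 17.1%, 18.1%, 12.3%, 36.6% and 13.1% in that order, 13.4% with 1000 genes and 2000 UMIs required, 14.5% without the top 5% of doublet scores, and 13.7% to 17.3% with one barcode set left out. The 9 classes above 10% in S or G2/M became 15 at 5000 UMIs and 24 with the further lists. The 5 calls of cyclins and inhibitors by phase became 10 at 1000 UMIs, 12 at 5000, 8 with a cut of 2 and 8 without set 2. Calls of members as higher, 165 summed over classes, became 93 with a ratio of 3. No phase ratio that was called changed direction, but orders of shares did. With the further lists the G2/M share was 53.0% in Myog myoblasts and 41.1% in Fgfr4 progenitors, against 1.57% and 14.9%. The erythroid-like G2/M share fell below the pro-B or pre-B cell-like share with the further lists (55.8% and 81.8%), without Mki67 (52.1% and 57.4%) and with 200 genes and 500 UMIs (40.6% and 61%). Of the values for single classes, 308 G2/M shares and 334 S shares stayed within their counting interval and 125 and 99 did not, and 39 phase ratios kept their call and 19 lost it; the cause was not tested. Leaving out Mki67, doublet scores or histone genes was chosen after seeing the data. The filter of 200 genes and 500 UMIs and the run with doublets kept were not run for the phase comparison within clusters. Cells under 2000 UMIs got no phase, among them 167 B cell-like, 146 erythroid-like and 74 myofibre-like cells. No paired analysis was possible because the matrix is 1 pooled sample whose cells carry no genotype or replicate.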
